A study of Drosophila melanogaster with 4 samples.

Results

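The circadian clock genes described here are 8 of the 13964 genes listed in the files: per, tim, Clk, cyc, vri, Pdp1, cwo and cry. They were chosen by symbol, with earlier results of these data known. In the fly clock, the proteins of Clk and cyc form an activator that switches on per, tim, vri, Pdp1 and cwo. The proteins of per and tim then block that activator, VRI and PDP1 repress and activate Clk in a second loop, and cwo encodes a further repressor of the same targets. CRY is a blue-light receptor that leads to breakdown of TIM in light. Photoreceptors and other cells of the head carry their own clocks, and the transcripts of most of these genes rise and fall over the day.

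Single-cell RNA-seq was made from dissociated adult eyes of Drosophila melanogaster of the Canton-S strain, with 1 droplet library from each of 4 groups (males aged 1, 3 or 7 days and females aged 1 day). Eyes of many animals were pooled in each library, all were raised at the same temperature, and all were dissected and dissociated with Actinomycin D, a transcription blocker. The labels do not give the hour of dissection or the light regime. With 1 library per age and sex, hour of the day, age, sex and preparation cannot be told apart in any difference between libraries.

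The 8 genes lie on the dm6 build at X:2685580-2692780 on the plus strand (per, FBgn0003068), 2L:3493986-3508119 on the minus strand (tim, FBgn0014396), 3L:7763233-7775603 on the minus strand (Clk, FBgn0023076) and 3L:19813770-19815938 on the minus strand (cyc, FBgn0023094). The others lie at 2L:5288944-5311223 on the plus strand (vri, FBgn0016076), 3L:7811458-7867369 on the minus strand (Pdp1, FBgn0016694), 3R:10388258-10400752 on the plus strand (cwo, FBgn0259938) and 3R:19212154-19215442 on the plus strand (cry, FBgn0025680). Exons of per overlap those of dyw on the other strand, and exons of cry overlap those of vib on the other strand. The counting kept sense reads. Exons of cry also overlap lncRNA:CR46393, and exons of tim overlap snoRNA:Or-CD16, each on the same strand. Neither of these is among the counted genes, and sense counting does not set their reads apart. Their part in the cry and tim counts was not tested. Pdp1 has 13 annotated transcripts and the files give 1 count per gene, so its clock isoform was not separated from the rest.

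Between 5897 and 13788 cells per library passed the filters, with 1999 to 6497 median UMIs (unique transcript molecules) in a kept cell. Clusters were named from marker genes as R1-6, R7, R8, pigment cells (secondary and tertiary) and neuron-like cells, and the clock genes had no part in forming them. A further class held the clusters with repo, the glial transcription factor. In every library 1 of these clusters had Vmat, which stands on the neuron list, among its 10 leading genes, so the class is called repo-positive cells and not glia. Photoreceptor markers summed to 240599 to 335908 counts scaled to a common library total (CPM) in R1-6 and to 10270 to 36470 CPM in pigment, neuron-like and repo-positive cells. Markers of hemocytes and muscle each summed to at most 3.54 CPM in these 6 classes, except in the repo-positive cells, where the sum of the hemocyte markers ran from 0 to 213 CPM. The 6 neuron markers summed to 1768 to 3513 CPM in repo-positive cells and to 3485 to 5050 CPM in neuron-like cells. In the latter the 5 R7 markers summed to 8589 to 10761 CPM and the 5 R8 markers to 7292 to 11319 CPM. The 7 glia markers summed to 4582 to 6937 CPM in repo-positive cells and to 5395 to 5864 CPM in pigment cells, so their sum did not separate these classes. The 8 pigment markers summed to 3600 to 6539 CPM in repo-positive cells and to 118102 to 163657 CPM in pigment cells. The 3 fat body markers summed to 85.1 to 197 CPM in repo-positive cells, 0.715 to 133 CPM in pigment cells, 2.48 to 86.9 CPM in neuron-like cells, and from 0.235 to 48.7 CPM over R1-6, R7 and R8, with Fbp1 at 0 in some libraries of every class. The part of these marker lists in the clock gene levels was not tested. Pdf, the peptide of clock neurons in the brain, was at most at 0.193 CPM in neuron-like cells and at most at 0.857 CPM in any class. Libraries shared 12 to 37 cell barcodes per pair.

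Levels are given as CPM of the counts summed over the cells of a class in a library. ninaE, the rhodopsin of R1-6, stood in neuron-like cells at 5.91% to 9.26% of its level in the whole library, and in pigment cells at 7.26% to 18.01%. If all of that were free RNA with the composition of the library, the same share of every clock gene would be carried over, and that carried level is set beside the measured level where it matters. In pooled or summed counts, fewer cells that use a gene and less RNA per cell cannot be told apart.

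Clk, which encodes one partner of the activator, was found in all photoreceptor types. In R1-6 it stood at 46.0 CPM in the 1-day male, 33.1 in the 3-day male, 61.2 in the 7-day male and 26.1 in the 1-day female. R7 had 52.2, 36.3, 60.6 and 36.5 CPM and R8 had 44.3, 36.3, 76.9 and 51.9 CPM in the same order. Pigment cells had 20.6, 20.7, 27.2 and 16.6 CPM, below every photoreceptor type of their own library. Repo-positive cells had 15.6 to 23.7 CPM. Neuron-like cells had only 1.49 to 4.26 CPM and the carried level was 69.2% to 190% of these values. The 190% belongs to the 7-day male, where the measured level rests on 3 UMIs. The part of free RNA in these counts was not tested. Among the 6 classes the order by mean over the libraries was R8, R7 and R1-6 (52.4 ± 17.6, 46.4 ± 12.03 and 41.6 ± 15.4 CPM, SD, n = 4), which overlapped, then pigment and repo-positive cells (21.3 ± 4.40 and 19.7 ± 3.88), which also overlapped, then neuron-like cells (2.50 ± 1.27).

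cyc, the partner of Clk, had another distribution. Pigment cells had 13.8, 20.03, 21.5 and 19.2 CPM in the 1-day, 3-day and 7-day males and the 1-day female, while R1-6 had 4.23, 3.77, 4.58 and 3.27 CPM. R7 had 4.52 to 6.22, R8 3.73 to 4.81 and neuron-like cells 1.49 to 5.56 CPM. The pigment values did not overlap with those of any photoreceptor type, and the carried level was 2.2% to 5.2% of them. Repo-positive cells ranged from 3.77 to 18.8 CPM and overlapped with both. The smallest counts behind these levels were 3 UMIs in the neuron-like cells and 6 UMIs in the R8 cells of the 7-day male, and 5 UMIs in the repo-positive cells of the 3-day male.

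**Figure D1:**
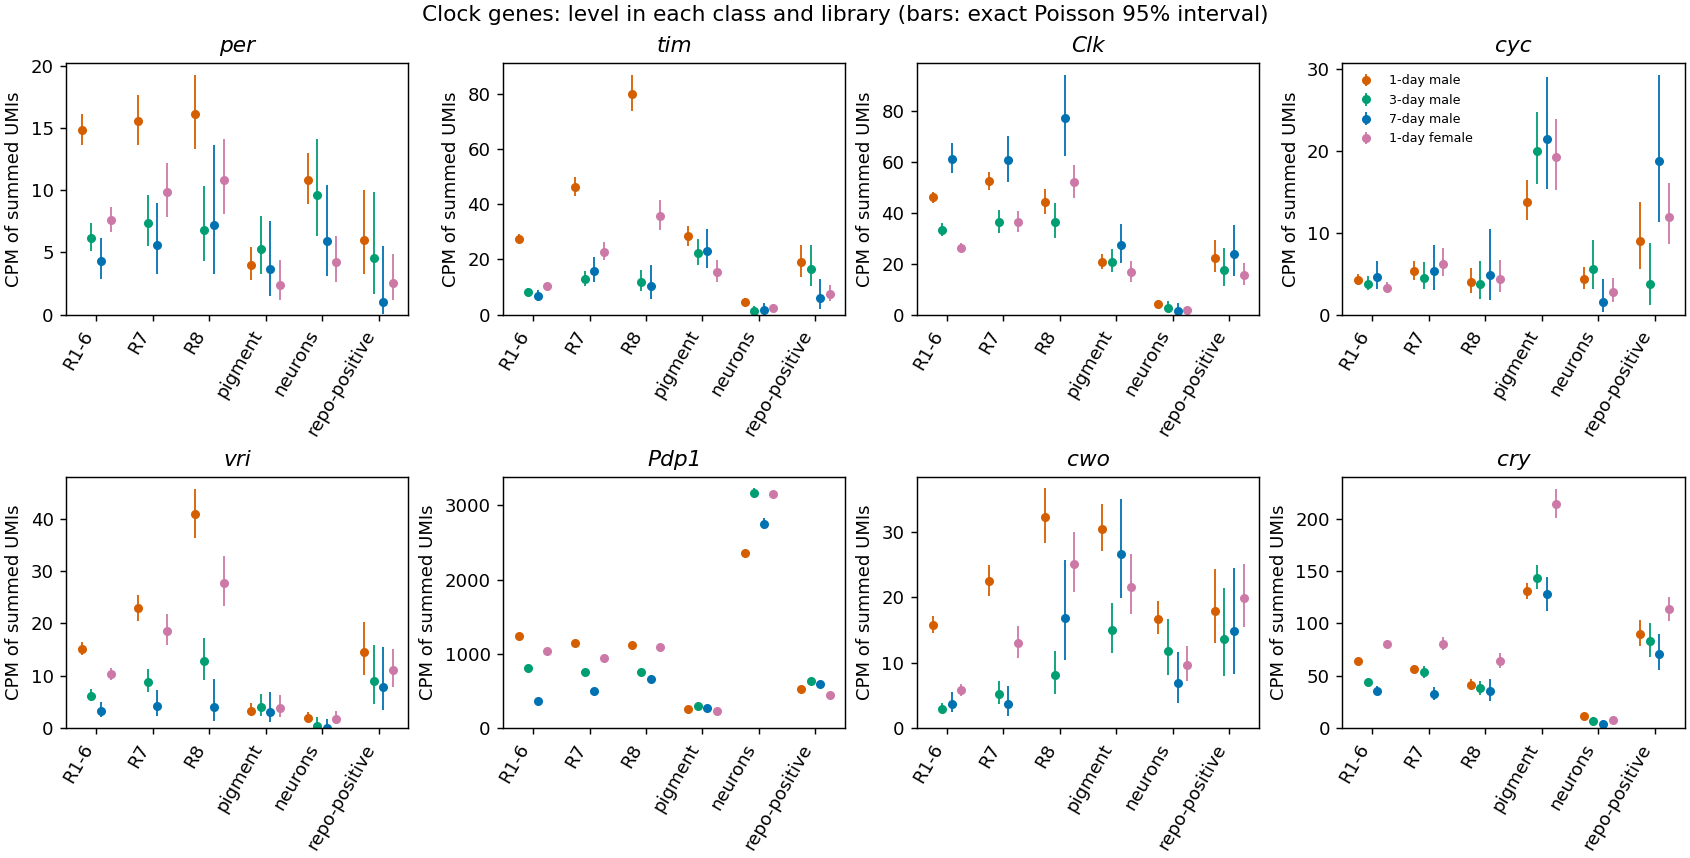
Level of each clock gene (CPM of summed UMIs, linear axis from 0) in 6 classes, with 1 point per library and an exact Poisson 95% interval that covers counting error only. cry and cyc stand highest in pigment cells, Pdp1 in neuron-like cells, and the tim and vri values of R8 in the 1-day male (80.0 and 40.9 CPM) lie above those of the other classes shown.

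The transcript of per, the repressor, stood in R1-6 at 14.8 CPM in the 1-day male, 6.18 in the 3-day male, 4.28 in the 7-day male and 7.62 in the 1-day female. R7 had 15.6, 7.35, 5.60 and 9.85 CPM and R8 16.1, 6.83, 7.21 and 10.8 CPM. In each photoreceptor type the 1-day male was the highest. Pigment cells had 2.40 to 5.25 CPM, and the carried level was 9.15% to 34.2% of that. Neuron-like cells had 10.8, 9.64, 5.96 and 4.19 CPM, and there the carried level was 3.94% to 10.9% of the measured one.

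For tim, whose protein pairs with PER, the libraries stood far apart in photoreceptors. R8 had 80.0 CPM in the 1-day male, 11.8 in the 3-day male, 10.4 in the 7-day male and 35.7 in the 1-day female. R7 had 46.2, 12.9, 15.8 and 22.8 CPM, and R1-6 had 27.5, 8.22, 6.65 and 10.3 CPM. In every library both inner types were above R1-6. Pigment cells were more even, at 28.3, 22.4, 23.0 and 15.4 CPM. Repo-positive cells had 5.93 to 18.8 CPM, and their 16.6 CPM in the 3-day male was above every photoreceptor type of that library. The cone and primary pigment cells, found in the 3 male libraries with 64 to 208 cells each, had 59.2, 35.8 and 68.0 CPM from 15 to 36 UMIs, the highest mean of any class (54.3 ± 16.6, SD, n = 3). Neuron-like cells had 1.11 to 4.64 CPM, and the carried level was 35.3% to 65.5% of that.

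vri encodes the repressor of the second loop. R8 had 40.9, 12.7, 4.01 and 27.8 CPM in the 1-day, 3-day and 7-day males and the 1-day female, R7 had 22.9, 8.91, 4.28 and 18.6 CPM and R1-6 had 15.1, 6.23, 3.25 and 10.3 CPM. Pigment cells stayed between 3.14 and 4.05 CPM. Repo-positive cells had 14.6, 9.05, 7.91 and 11.1 CPM from 34, 12, 8 and 39 UMIs. These values were above R1-6 in every library but the 1-day male and above every photoreceptor type in the 7-day male. The exact 95% counting interval of the ratio of R1-6 to repo-positive cells included 1 in every library. In the 7-day male the ratio was 0.411 (0.176 to 1.07), and R1-6, R7 and R8 held 22, 13 and 5 UMIs. In neuron-like cells vri had 20, 1, 0 and 10 UMIs. The 0 in the 7-day male allows a level of up to 1.49 CPM by the limit of 3 counts, and of up to 1.83 CPM by the exact Poisson 95% interval used in the plot of levels.

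Pdp1, whose protein activates Clk in the second loop, had its highest level in neuron-like cells. They had 2363, 3166, 2753 and 3148 CPM, above every other class in every library, and each of their 23 clusters had at least 835 CPM. Not every cluster was above photoreceptors: the lowest of the 1-day male had 870 CPM, below all photoreceptor types of that library. R1-6 had 1242, 806.6, 367.4 and 1044 CPM, R7 had 1145, 756.7, 495.8 and 948.7 CPM and R8 had 1122, 753.5, 662.7 and 1087 CPM. Repo-positive cells had 444.8 to 628.2 CPM, and their 589.2 CPM in the 7-day male was above R1-6 and R7 of that library. Pigment cells were the lowest of the 6 classes, at 225.0 to 295.9 CPM, and the carried level was 19.3% to 52.8% of that.

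cwo, the repressor of clock targets, was found in every class. Pigment cells had 30.6, 15.02, 26.7 and 21.6 CPM, R8 had 32.4, 8.08, 16.8 and 25.1 CPM and R7 had 22.5, 5.23, 3.62 and 13.02 CPM. R1-6 had 15.8, 2.98, 3.69 and 5.78 CPM, the lowest of the 6 classes in every library but the 7-day male, where R7 was lower. Neuron-like cells had 6.95 to 16.7 CPM and repo-positive cells 13.6 to 19.9 CPM.

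cry, the light receptor, was highest in pigment cells in every library, at 131.1, 143.8, 127.7 and 214.4 CPM. Repo-positive cells followed with 90.4, 83.0, 71.2 and 113.5 CPM. R1-6 had 64.3, 44.1, 35.8 and 80.8 CPM, with R7 at 32.6 to 80.6 and R8 at 35.3 to 64.2 CPM. The 3 photoreceptor types overlapped with each other, and none reached the repo-positive cells of its own library. Neuron-like cells had 3.97 to 11.8 CPM, with a carried level of 47.8% to 66.6%.

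As a share of cells, most members are sparse at this depth. With each cell thinned to 1000 UMIs, tim was seen in 9.38% of R8 cells of the 1-day male (exact Clopper-Pearson 95% interval 7.30% to 11.8%) and in 0.537% of its neuron-like cells (0.246% to 1.02%), at unthinned medians of 6843 and 3843 UMIs per cell. cry was seen in 11.97% to 17.02% of pigment cells, in 3.35% to 7.25% of R1-6 cells and in 0.429% to 1.25% of neuron-like cells. Pdp1 was seen in 82.3% to 89.6% of neuron-like cells and in 17.9% to 22.1% of pigment cells. Without thinning the cry shares were 20.7% to 37.4% in pigment cells and 8.90% to 46.1% in R1-6 cells. Thinning left out 370 to 1087 pigment cells, 132 to 492 R1-6 cells and 26 to 106 neuron-like cells per library that held fewer UMIs.

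The class contrasts ask whether these differences exceed their own variation from library to library, with the 4 libraries as replicates. A block for library takes out shifts that all classes of a library share. For each gene the classes of a fit share an estimate of the spread. Photoreceptors (the mean of R1-6, R7 and R8) were set against each other class in a fit over 7679 genes with edgeR's quasi-likelihood test, library as a block and Benjamini-Hochberg adjustment. The fit uses TMM factors, which run from 0.588 to 0.974 in photoreceptors and from 1.39 to 1.69 in neuron-like cells. The factors shift log2 fold changes away from CPM: on the CPM scale the median gene stood at -0.97 (log2) in photoreceptors against neuron-like cells, at -0.65 against repo-positive cells and at -0.32 against pigment cells, and with the factors at -0.054, -0.010 and 0.066. This alternative was chosen after seeing the data.

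Against pigment cells, 7 of the 8 clock genes differed at an adjusted p under 0.05, where 75.4% of all genes did. 4 were higher in photoreceptors: vri by 2.40 ± 0.28 (log2, SE; adjusted p = 1.21e-07), Pdp1 by 2.06 ± 0.23 (7.73e-08), per by 1.74 ± 0.25 (2.03e-06) and Clk by 1.49 ± 0.16 (3.34e-08). 3 were lower: cyc, at -1.64 ± 0.20 (2.75e-07), cry, at -1.20 ± 0.14 (6.98e-08), and cwo, at -0.70 ± 0.24 (0.0119). The 2 genes of the activator thus differed in opposite directions. tim gave 0.23 ± 0.27 (adjusted p = 0.451), and on the CPM scale its sign turned (-0.17). The call of cwo was lost without the 3-day male (-0.59, adjusted p = 0.0605), with clusters at resolution 1.2 (-0.58, adjusted p = 0.0532) and with no replicate block (-0.57, adjusted p = 0.215). The photoreceptor types also differed in cwo. The CPM ratio of R1-6 to pigment cells was 0.138 to 0.518. R8 gave 1.06 (0.888 to 1.26) in the 1-day male and 1.16 (0.877 to 1.54) in the 1-day female, against 0.538 and 0.630 in the 3-day and 7-day males. For per the ratio of R1-6 to pigment cells was 3.74 (2.68 to 5.37) in the 1-day male and 3.17 (1.69 to 6.69) in the 1-day female. In the 3-day and 7-day males it was 1.18 (0.743 to 1.95) and 1.17 (0.501 to 3.16), with 22 and 7 UMIs in pigment cells. There the per ratios of R7 and R8 were 1.30 to 1.97, and their counting intervals also included 1.

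Against neuron-like cells all 8 differed, beside 70.3% of all genes. Clk was higher in photoreceptors by 4.87 ± 0.22 (adjusted p = 2.90e-14), vri by 4.40 ± 0.33 (1.12e-10), tim by 4.03 ± 0.37 (4.34e-09) and cry by 3.56 ± 0.19 (7.96e-13), and these 4 were also called on the CPM scale. Pdp1 was lower in photoreceptors (-0.82 ± 0.19, adjusted p = 0.000806), with -1.78 on the CPM scale. per (1.25 ± 0.22), cyc (1.15 ± 0.26) and cwo (0.90 ± 0.27) were called with the TMM factors and not on the CPM scale, where they gave 0.33, 0.25 and -0.021, so that cwo turned its sign. cwo was not called without the 1-day female (0.74, adjusted p = 0.0633) or with no replicate block (0.96, adjusted p = 0.0661) either.

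Against repo-positive cells 6 of 8 differed, beside 73% of all genes. per (2.06 ± 0.30, adjusted p = 2.37e-06), Clk (1.84 ± 0.18, 6.71e-09), tim (1.503 ± 0.33, 0.000394), Pdp1 (1.23 ± 0.22, 4.33e-05) and vri (1.03 ± 0.26, 0.00148) were higher in photoreceptors. cyc was lower (-0.61 ± 0.26, 0.0381), a call lost without the 7-day male (-0.47, adjusted p = 0.125) or the 1-day female (-0.50, adjusted p = 0.219). The cyc call was also lost with classes from gates (-0.34, adjusted p = 0.329), with the clock genes kept in the clustering (-0.44, adjusted p = 0.206) and with only the repo-positive clusters that passed the naming rule as glia-like (-0.75, adjusted p = 0.0803), an alternative chosen after seeing the data. vri was not called without the 1-day male (0.70, adjusted p = 0.0504), on the CPM scale (0.37), with no replicate block (1.02, adjusted p = 0.0813) or with the glia-like clusters (0.11). cry gave -0.18 ± 0.15 (0.282) and was called lower with DESeq2-type size factors (-0.43), on the CPM scale (-0.82) and without the 1-day male (-0.31, adjusted p = 0.0445). cwo gave 0.038 ± 0.29 (0.917), with -0.60 on the CPM scale.

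**Figure D2:**
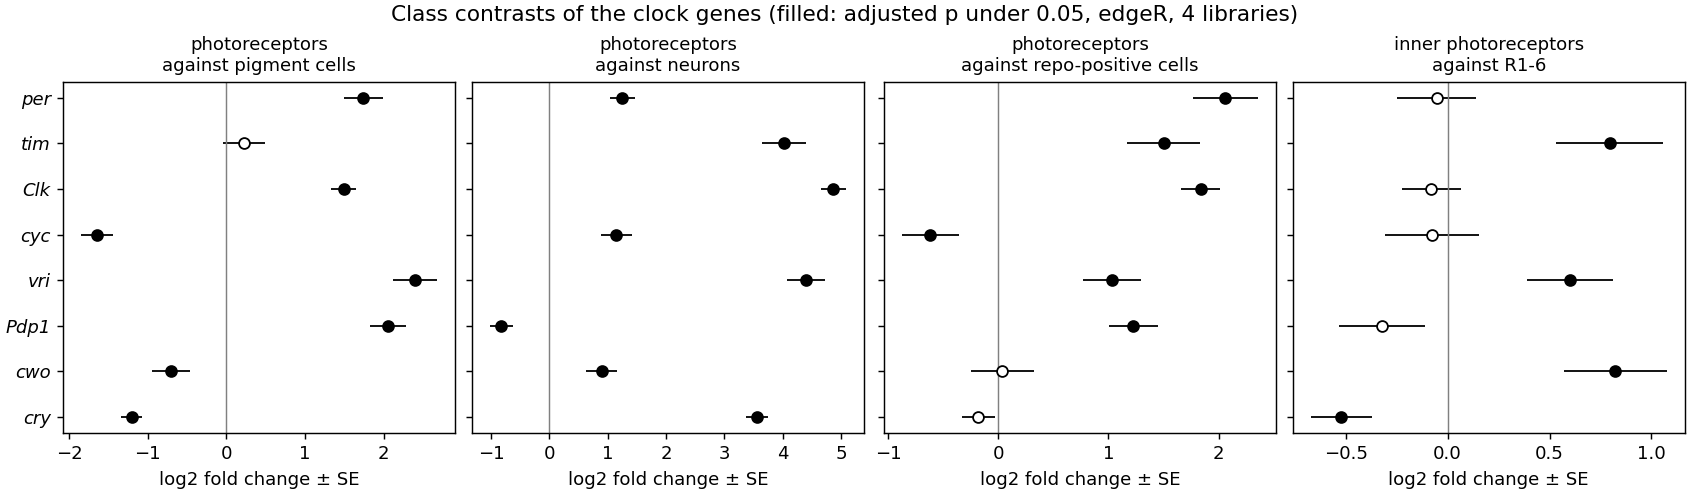
Log2 fold change of each clock gene with its standard error in 4 class contrasts of the edgeR fit over 4 libraries (TMM factors). Filled points had an adjusted p under 0.05; cyc, cwo and cry lie on the pigment side and per, Clk, vri and Pdp1 on the photoreceptor side of the first panel, and Pdp1 alone lies on the neuron side of the second.

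Pigment against repo-positive cells gave 5 calls, beside 56.1% of all genes: tim (1.28 ± 0.38), cyc (1.03 ± 0.28) and cry (1.02 ± 0.18) were higher in pigment cells, and vri (-1.37 ± 0.36) and Pdp1 (-0.83 ± 0.25) were lower. Without the 3-day male the calls of cyc (0.74, adjusted p = 0.0524) and Pdp1 (-0.82, adjusted p = 0.0547) were lost, and with no replicate block those of tim (1.11, adjusted p = 0.152) and vri (-1.35, adjusted p = 0.0951). cwo was called higher in pigment cells with RLE size factors (0.74, adjusted p = 0.0475) and with classes from gates (0.79, adjusted p = 0.0466). Neuron-like against repo-positive cells gave 8 calls, beside 73.9% of all genes. Pdp1 (2.05 ± 0.26) and per (0.81 ± 0.35, adjusted p = 0.0447) were higher in neuron-like cells, and cry (-3.74 ± 0.21), vri (-3.37 ± 0.40), Clk (-3.03 ± 0.25), tim (-2.53 ± 0.47), cyc (-1.76 ± 0.33) and cwo (-0.86 ± 0.35, adjusted p = 0.0320) were lower. The per call was lost without the 1-day male (0.78, adjusted p = 0.163), the 7-day male (0.66, adjusted p = 0.144) or the 1-day female (0.89, adjusted p = 0.0548), and the cwo call was lost without the 7-day male (-0.78, adjusted p = 0.0610) or the 1-day female (-0.61, adjusted p = 0.260). With no replicate block both were lost (per 0.80, adjusted p = 0.173, and cwo -0.82, adjusted p = 0.193). The per call was also lost with DESeq2 (0.59, adjusted p = 0.162), RLE size factors (0.57, adjusted p = 0.134), doublet-like cells removed (adjusted p = 0.0678), 5% free RNA removed (adjusted p = 0.0683), clusters at resolution 1.2 (adjusted p = 0.104) and the glia-like clusters (0.13, adjusted p = 0.843). The cwo call was also lost with classes from gates (-0.64, adjusted p = 0.100) and on the CPM scale (-0.58, adjusted p = 0.160).

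The plot of measured and carried levels sets the neuron-like and pigment values against free RNA. In neuron-like cells the carried level was 69.2% to 190% of the measured one for Clk, 47.8% to 66.6% for cry and 35.3% to 65.5% for tim. For vri it was 72.7% in the 1-day male, 112% in the 3-day male (1 UMI) and 38.0% in the 1-day female, with no share in the 7-day male, where vri had 0 UMIs. It was 3.94% to 10.9% for per and 6.38% to 29.3% for cyc, and 3.30% to 11.6% for cwo and 1.54% to 4.63% for Pdp1. In pigment cells it was at most 6.90% for cry and at most 5.21% for cyc, the genes that were highest there.

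**Figure D3:**
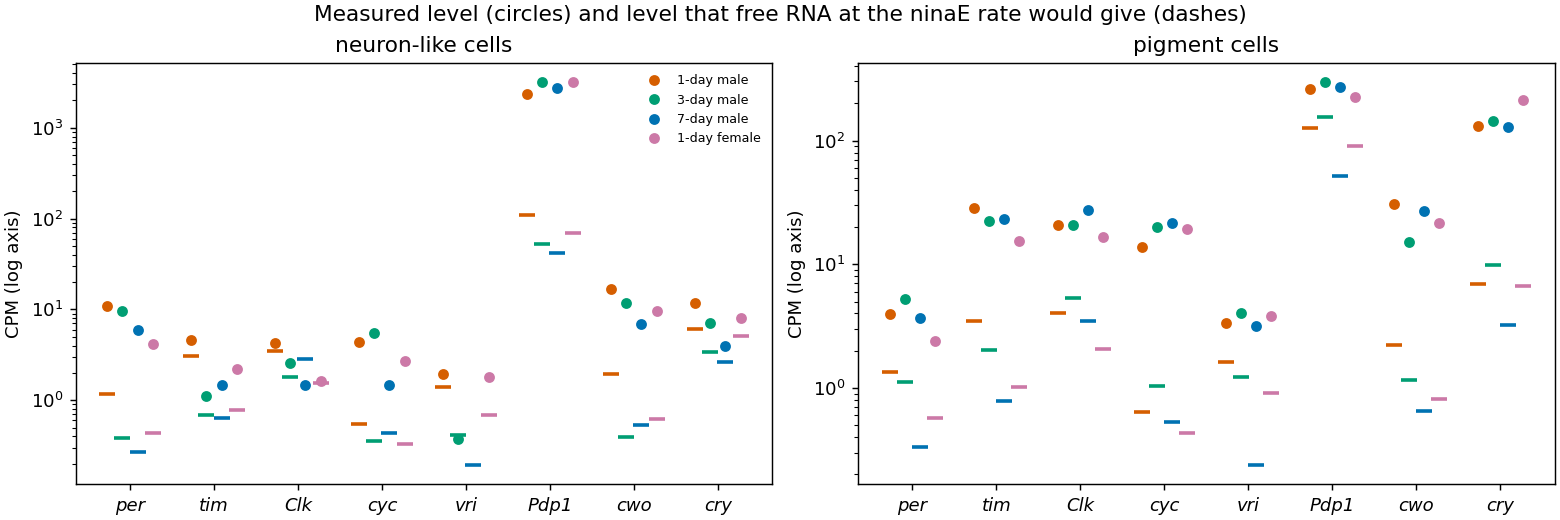
Measured level of each clock gene (circles, CPM, log axis) and the level that free RNA would give if all ninaE UMIs of the class were free RNA of the library's composition (dashes), in neuron-like and pigment cells of each library. Values at 0 are not drawn; the circles of Clk in neuron-like cells lie on or near their dashes, at 69.2% to 190% of the measured value.

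Among photoreceptors, the inner types R7 and R8, which see ultraviolet, blue or green light, were set against the outer R1-6. 4 of 8 clock genes differed, beside 30.6% of all genes. cwo (0.82 ± 0.25, adjusted p = 0.0178), tim (0.80 ± 0.26, 0.0272) and vri (0.60 ± 0.21, 0.0367) were higher in the inner types, and cry was lower (-0.52 ± 0.15, 0.0111). On the CPM scale, where the median gene moved from -0.18 to 0.17, the first 3 stayed called (1.17, 1.14 and 0.95), cry did not (-0.16), and per, Clk, cyc and Pdp1, not called in either, turned from negative to positive. With 83.7% of called genes higher on the CPM scale and 28.8% with the TMM factors, the direction of small differences here depends on the scaling. None of the 4 stayed called without the 1-day female (adjusted p from 0.0671 to 0.140). tim was also lost without the 1-day male (0.70, adjusted p = 0.0941) or the 7-day male (0.76, adjusted p = 0.0607), vri without the 1-day male (0.48, adjusted p = 0.164) or the 3-day male (0.64, adjusted p = 0.105), and cwo without the 3-day male (0.82, adjusted p = 0.0577). With no replicate block none of the 4 was called (adjusted p from 0.241 to 0.396). vri was also lost with no filter beyond 1 UMI (adjusted p = 0.0774), with 5% free RNA removed (0.0684) and with the clock genes kept in the clustering (0.0722), and cry with 5% free RNA removed (0.0660). Pdp1 was called lower in the inner types without the 7-day male (-0.48, adjusted p = 0.0440).

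R7 against R8 gave no call among the 8, beside 3.11% of all genes, with edgeR and with DESeq2. At an unadjusted p under 0.05 in edgeR were 2 of the 8, cwo (-0.87 ± 0.30, adjusted p = 0.150) and vri (-0.63 ± 0.25, adjusted p = 0.252), both with a lower estimate in R7. For tim the estimate was -0.41 ± 0.31. The ratio of R8 to R7 was 1.73 in the 1-day male (exact 95% interval 1.55 to 1.93) and 1.57 in the 1-day female (1.27 to 1.94), against 0.918 in the 3-day male (0.611 to 1.35) and 0.659 in the 7-day male (0.328 to 1.24).

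Pale and yellow R7 cells, told apart by Rh3 or Rh4, were compared within each library. tim was higher in pale R7 in all 4 libraries, at 57.3 against 38.3 CPM in the 1-day male, 19.5 against 9.91 in the 3-day male, 18.1 against 11.6 in the 7-day male and 23.96 against 19.4 in the 1-day female. The difference was 0.50 ± 0.12 (log2, SE; edgeR adjusted p = 0.0238), the 1 call among the 8 beside 4.08% of all genes. It was lost with DESeq2 (adjusted p = 0.292), with no replicate block and without the 1-day male (0.287) or the 3-day male (0.0754), with 0.46 to 0.55 as estimates. The values of the other 7 genes lay between -0.40 (cyc, ± 0.23) and 0.084 (Pdp1, ± 0.055), none called.

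Between libraries there is no replicate, so ratios carry counting error only and are called past 2-fold without a test. In R1-6 the 3-day male stood below the 1-day male for all 8 genes. cwo was at 0.189 of the 1-day level (exact 95% interval 0.141 to 0.248), tim at 0.299 (0.251 to 0.354), vri at 0.412 (0.335 to 0.503) and per at 0.416 (0.338 to 0.509). These 4 were past 2-fold, beside 18.9% of genes in either direction. Pdp1 was at 0.649, cry at 0.687, Clk at 0.721 and cyc at 0.891 (0.664 to 1.19). The median gene of R1-6 was itself lower by 0.29 (log2) in the 3-day male, by 0.22 in the 7-day male and by 0.35 in the 1-day female, so part of each ratio is shared with most genes.

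In the 7-day male 5 clock genes of R1-6 were past 2-fold below the 1-day male, beside 16.1% of genes: vri at 0.215 (0.134 to 0.329), cwo at 0.233 (0.150 to 0.348), tim at 0.242 (0.175 to 0.326), per at 0.289 (0.191 to 0.419) and Pdp1 at 0.296 (0.284 to 0.308). Clk went the other way, to 1.33 (1.19 to 1.48), and in R8 to 1.74 (1.37 to 2.19). In the same R8 cells vri was at 0.0980 (0.0316 to 0.231) and tim at 0.130 (0.0689 to 0.224), from 5 and 13 UMIs in the 7-day male. In R7 Clk was at 1.16 (0.984 to 1.36), and per, tim, vri, Pdp1, cwo and cry were below the 1-day male in all 3 photoreceptor types. Beside these, 17.3% of genes in R7 and 18.1% in R8 were past 2-fold in the 7-day male. The median gene stood at -0.18 in R7 and -0.081 in R8 (log2).

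The 1-day female stood between the 1-day and 7-day males in R1-6 for per, tim, vri, Pdp1 and cwo. There tim was at 0.373 (0.328 to 0.423) and cwo at 0.365 (0.307 to 0.432) of the 1-day male, the 2 past 2-fold, beside 19% of genes. per was at 0.513, vri at 0.685, Pdp1 at 0.840 and Clk at 0.569. cry was higher in the female in all 4 eye classes, by 1.26 in R1-6 (1.19 to 1.33), 1.42 in R7 (1.29 to 1.58), 1.54 in R8 (1.31 to 1.81) and 1.64 in pigment cells (1.499 to 1.78).

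In pigment cells, of the 7 clock genes with at least 50 UMIs in the 3-day and 1-day males, 1 was past 2-fold (cwo at 0.492, 0.368 to 0.648), beside 8.61% of genes. With 6 genes each, none was past 2-fold in the 7-day male, beside 17.6% of genes, or in the 1-day female, beside 5.38%. tim, lower in the photoreceptors of the 7-day male, was at 0.814 (0.578 to 1.12) in its pigment cells, and Pdp1 at 1.03 (0.935 to 1.13). The carried level in pigment cells was 47.9% of the Pdp1 level in the 1-day male and 19.3% in the 7-day male. For tim it was 12.3% and 3.38%. The part of free RNA in these ratios was not tested. The difference between the classes was not tested, since each library is alone in its group.

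**Figure D4:**
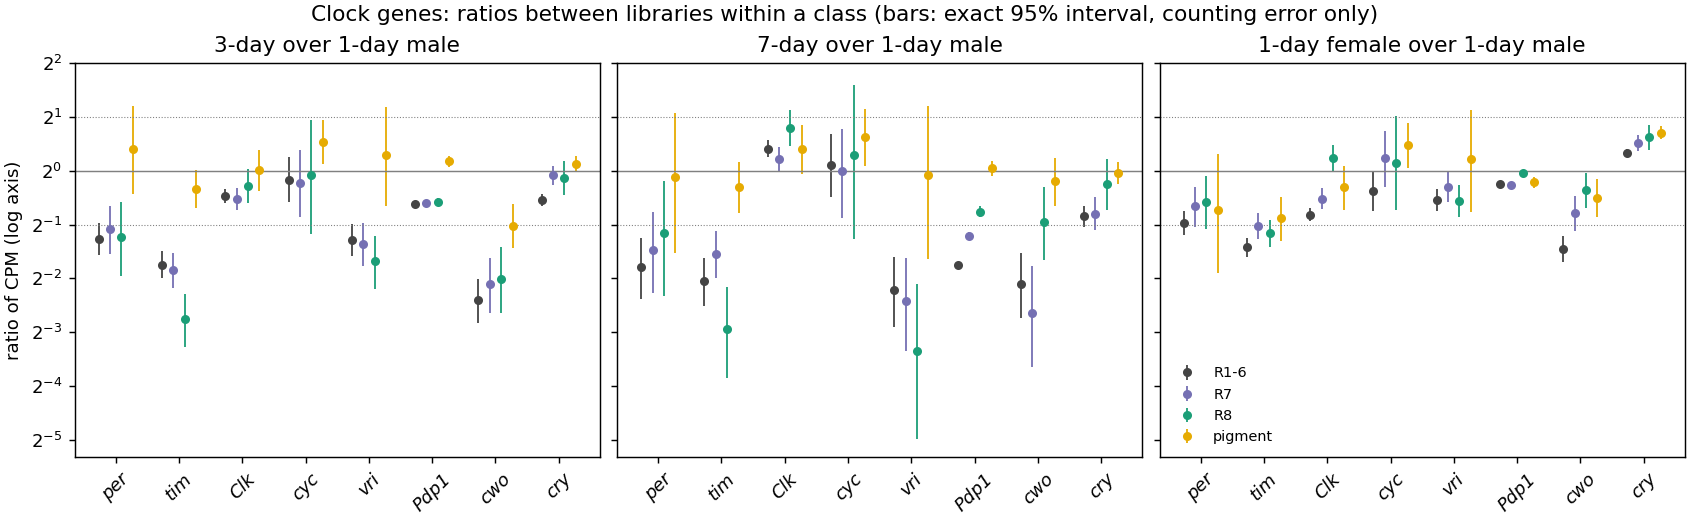
Ratio of the CPM of each clock gene to the 1-day male (log axis, 1 is no difference, dotted lines at 2-fold) in R1-6, R7, R8 and pigment cells, with exact 95% intervals for counting error. per, tim, vri, Pdp1, cwo and cry lie below 1 in all 3 photoreceptor types of the 3-day and 7-day males. Clk lies above 1 in the 7-day male, with an interval that includes 1 in R7, and below 1 in the photoreceptors of the 3-day male.

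Depth and clusters moved with the libraries too. The median R1-6 cell had 7448 UMIs in the 1-day male, 3830 in the 3-day male, 1893 in the 7-day male and 7811 in the female. Over the R1-6 clusters of a library, tim ran from 13.5 to 40.4 CPM in the 1-day male, from 2.84 to 32.2 in the 3-day male, from 3.82 to 8.30 in the 7-day male and from 3.55 to 18.7 in the female. Clk ran from 24.6 to 89.6 CPM over the R1-6 clusters of the 7-day male alone. The part of depth and of cluster make-up in the ratios was not tested.

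Over the 24 sums of the fit, with the mean of each class subtracted, tim went with per (r = 0.85), vri (0.83), cwo (0.76) and Pdp1 (0.61) on log2(CPM + 5), with r = 0.016 for Clk and -0.24 for cyc. The 24 sums come from only 4 libraries and share their depth, so these values are a description. The 5 genes most like tim in this respect were cyr, mIF2, Atpalpha, Dyrk2 and Tango1 among 7679 genes, with r from 0.89 to 0.93. Of these, cyr ran from 0 to 9.82 CPM and mIF2 from 0 to 10.1 CPM, low levels beside the 5 CPM added before the log. Over classes and libraries together, the gene most like Clk was Synd (r = 0.93), like cry Aldh (0.95) and like Pdp1 CG9410 (0.96). Those most like the others were Slik for per (0.87), Moe for tim (0.91), Mink for cyc (0.93), Arc1 for vri (0.85) and Khc for cwo (0.72).

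The other parts of the clock were taken from lists of known partners, named by the largest called difference of each list. The counts of called genes below stand beside 75.4% of all genes called against pigment cells, 70.3% against neuron-like cells and 73% against repo-positive cells, so a high share of calls in a list of 4 to 10 genes is not a result about that list. Of all called genes, 3023 were higher and 2766 lower in photoreceptors than in pigment cells, 2490 and 2912 against neuron-like cells, and 2815 and 2788 against repo-positive cells. Of the 10 tested kinases and phosphatases that act on PER and TIM, 9 were called higher in photoreceptors than in pigment cells and none lower (median 0.86, beside 0.066 over all genes). gish, a casein kinase, was higher by 2.55 ± 0.11 and dco, the kinase doubletime of PER, by 2.12 ± 0.12 (adjusted p = 2.37e-14 and 1.57e-12). Against neuron-like cells 6 were higher and 2 lower, with nmo, which encodes the kinase nemo, lower (-2.60 ± 0.12) and Pp1-87B, a phosphatase subunit, higher by 1.22 ± 0.10. Against repo-positive cells 8 were higher and 1 lower, led by gish (2.23) and sgg, the kinase shaggy (1.95).

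Of 9 genes for protein turnover and light resetting, beside the same shares of all genes, 6 were higher and 2 lower in photoreceptors than in pigment cells, 4 and 3 against neuron-like cells, and 6 and 2 against repo-positive cells. qsm, quasimodo, a light-response gene of the clock, stood at 12.04 to 22.8 CPM in pigment cells and at most 0.813 CPM in photoreceptors (-5.16 ± 0.36, adjusted p = 4.17e-11). Rh7, a rhodopsin, stood at most at 4.34 CPM in photoreceptors, and the neuron-like cells had 685.5 to 1833 CPM (-8.47 ± 0.24, adjusted p = 3.40e-17). Repo-positive cells also had more of Rh7, at 142 to 353 CPM (-6.38 ± 0.24). Fbxl4 was higher in photoreceptors than in pigment cells (3.52 ± 0.32) and neuron-like cells (4.26 ± 0.34), and Usp8 than in repo-positive cells (3.02 ± 0.35).

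All 8 tested transcription partners were lower in photoreceptors than in neuron-like cells (median -1.19, beside -0.054 over all genes, of which 70.3% were called), led by Mef2 (-1.80 ± 0.10) and Pur-alpha (-1.54 ± 0.090). Against pigment cells 6 were higher and 1 lower, led by Eip75B, a nuclear receptor (2.24 ± 0.16), and Mef2 (1.81 ± 0.13). Against repo-positive cells 4 were higher and 3 lower, led by kay, the fly Fos (-4.25 ± 0.19), and Mef2 (0.94 ± 0.12). Of the 4 translation factors tested, beside the same shares of all genes, 3 were higher and 1 lower than in pigment cells, 2 and 2 against neuron-like cells and 4 and 0 against repo-positive cells. Atx2, which helps translate PER, was higher than in pigment (0.97 ± 0.13) and repo-positive cells (0.70 ± 0.13), me31B than in pigment cells (0.47 ± 0.10) and pAbp than in repo-positive (0.39 ± 0.12) and neuron-like cells (0.88 ± 0.12). These are values with the TMM factors. In CPM, pAbp in R1-6 (527 to 766) lay below neuron-like (796 to 1128) and repo-positive cells (910 to 1396). R7 (783 to 1230) and R8 (909 to 1402) overlapped with both. me31B in R1-6 (37.5 to 45.8 CPM) overlapped with pigment cells (27.2 to 60.6 CPM). tyf, which promotes translation of PER, was lower than in neuron-like cells (-1.03 ± 0.10).

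Of the 8 tested output genes, 6 were lower and 1 higher in photoreceptors than in neuron-like cells, beside 70.3% of all genes called, led by unc80, of the sodium leak channel complex (-7.85 ± 0.26), and Pdfr, the receptor of PDF (-7.24 ± 0.31, also -5.33 ± 0.33 against repo-positive cells). 4 were higher and 3 lower than in pigment cells, led by qvr (4.22 ± 0.23) and Sh, both of the Shaker potassium channel (4.08 ± 0.18). 3 were higher and 4 lower than in repo-positive cells, and Slob, which binds a potassium channel, was higher there (3.91 ± 0.25). Of the genes known to cycle in heads, 4 were tested, and Pdh, which named the pigment class, is not a result. Cyp6a21, a cytochrome P450, stood at 26.5 to 43.5 CPM in pigment cells and at most 0.813 CPM in photoreceptors (-6.39 ± 0.31). trpl, a light channel subunit, was higher in photoreceptors than in neuron-like (4.78 ± 0.24) and repo-positive cells (4.21 ± 0.23), and Slob than in neuron-like cells (1.31 ± 0.20). Of the cycling genes 2 were higher and 2 lower in photoreceptors than in pigment cells, 3 and 0 against neuron-like cells and 2 and 0 against repo-positive cells, beside 75.4%, 70.3% and 73% of all genes called. The genes lower than in pigment cells were Cyp6a21 and Pdh, and the naming of the classes set the direction of Pdh. These lists were not refitted on the CPM scale, where the median gene shifts as given above, so a called difference smaller than that shift need not keep its direction.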

How the data were processed

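The deposited UMI counts per gene and barcode, made by the authors with Cell Ranger 6.0.1 on dm6 with sense reads counted, were used as raw counts, before the SoupX and SCTransform steps of the study. Barcodes were filtered, clustered per library (Seurat 5.3.0, sctransform 0.4.2) without the clock lists among the clustering genes, and named from fixed markers; some naming limits were set with the clusters at hand. Counts were summed per library and class and fitted with edgeR 4.0.16 (quasi-likelihood, TMM, filterByExpr, class and library terms, Benjamini-Hochberg over 7679 genes, or 5569 for pale against yellow R7). The library block follows from the design, since all classes of a library come from the same pooled eyes. Automatic doublet calling marked 783, 1, 1 and 1 cells and so did not work in 3 libraries; doublets were removed only as an alternative. Intervals cover counting error only. With the library block, p-values measure how far differences between classes vary over 4 libraries of differing age and sex. They do not measure the spread of levels between libraries. Pale or yellow R7 cells had at least 5 UMIs of Rh3 and Rh4 with 70% from one. Named genes were the 8 members, the 2 largest called differences of each list per contrast, and the genes most alike. The members and lists were chosen with earlier results of these data known. DESeq2 1.42.0 served as an alternative.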

Additional observations from a re-analysis of the deposited data

Results flagged for a closer look

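Some ratios between classes stood on opposite sides of 1 in different libraries, each with a 95% counting interval that leaves out 1. Each age and sex is 1 library, so the difference between libraries was not tested. The CPM of tim in R8 was 2.83 times that of pigment cells in the 1-day male and 2.32 times in the 1-day female, but 0.527 in the 3-day male and 0.452 in the 7-day male. In R7 the same ratio of tim was 1.63 in the 1-day male, 1.48 in the 1-day female and 0.574 in the 3-day male. The CPM of Pdp1 in R8 was 1.80 times that of R1-6 in the 7-day male and 1.04 times in the 1-day female, but 0.903 in the 1-day male and 0.934 in the 3-day male. In R7 the ratio of Pdp1 to R1-6 was 1.35 in the 7-day male, and 0.921, 0.938 and 0.909 in the 1-day male, the 3-day male and the 1-day female. For cry the ratio of R7 to R1-6 was 1.21 in the 3-day male and 0.880 in the 1-day male. For Clk the ratio of R8 to R7 was 1.42 in the 1-day female and 0.849 in the 1-day male.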

How the results depend on the processing

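Of 944 values of single clock genes under the alternatives, 836 kept direction and side of the threshold, 68 lost a call, 8 gained one and 32 turned their sign; the cause was not tested. For inner photoreceptors against R1-6, 2347 genes were called, 1037 with no replicate block, 558 with a limit of 1 on log2 and 1490 to 2173 without 1 library. The 4 clock genes became 0 with no replicate block, 2 with 5% free RNA removed, 0 with the limit on log2 and 0 to 4 without 1 library. R7 against R8 had 239 genes, 95 with no replicate block, 151 with the limit on log2 and 124 to 193 without 1 library; 1 clock gene (cwo) was called with classes from gates. With the limit on log2, photoreceptors gave 3838 genes against pigment and 3195 against neuron-like cells, and pigment against repo-positive cells 2614. On the CPM scale 5 clock genes were called against neuron-like cells. Pigment against repo-positive cells had 3 clock genes with no replicate block and 3 to 5 without 1 library. Pale against yellow R7 had 227 genes, 114 with DESeq2, 458 with no filter, 27 with no replicate block and 99 to 379 without 1 library, and the clock gene was lost (0) with DESeq2 and with no replicate block, and 0 to 1 were called without 1 library. The pigment count of 1 past 2-fold in the 3-day male was 0 with 5% free RNA removed and with classes from gates.

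Signs turned as follows (log2). Inner against R1-6: per 0.051 (DESeq2), 0.045 (RLE), 0.012 (gates) and 0.30 (CPM scale), Clk 0.029, 0.029, 0.024 and 0.28 in that order, cyc 0.022 (DESeq2), 0.022 (RLE) and 0.27 (CPM scale), and Pdp1 0.039 (CPM scale). tim against pigment cells gave -0.11 (DESeq2), -0.026 (RLE), -0.17 (CPM scale) and -0.23 to 0.50 without 1 library. cwo gave -0.021 against neuron-like cells (CPM scale), and against repo-positive cells -0.30 (DESeq2), -0.22 (RLE), -0.50 to 0.22 (without 1 library), -0.060 (doublets removed), -0.11 (free RNA), -0.11 (glia-like clusters) and -0.60 (CPM scale). per in pigment against glia-like clusters gave -0.17. Without 1 library, Clk gave -0.24 to 0.020 in R7 against R8. In pale against yellow R7, cwo gave -0.0080 (DESeq2), -0.027 (no replicate block), -0.14 to 0.13 without 1 library (-0.010 without the 3-day male), vri -0.35 to 0.012 and per -0.016 to 0.13 without 1 library.

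The share of called genes that were higher was 28.8% for inner against R1-6, 43.7% with RLE, 43.0% with DESeq2 and 83.7% on the CPM scale. On the CPM scale it moved from 52.2% to 38.7% against pigment, from 46.1% to 16.2% against neuron-like and from 50.2% to 27.3% against repo-positive cells, and from 47.7% to 33.7% for pigment against repo-positive cells. The glia-like, low-transmitter and CPM scale alternatives were chosen after seeing the data.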
